A study of Populus trichocarpa with 9 samples.

Results

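The genes described here are those of differentiating xylem whose mean level was lower 3 days after the stem was bent and higher again at 7 days, near, at or above its starting level relative to the other genes. They were chosen by the group means of the very libraries described below. Counts were divided by the library total and multiplied by 1e+06 (CPM), and the group means M0, M3 and M7 were taken. L3 and L7 are the log2 ratios of M3 and M7 to M0 after 1 CPM was added, each minus its median over the genes with at least 2 CPM in some group mean (medians of -0.05 for L3 and -0.29 for L7). A gene was kept with L3 of at most -0.5, L7 of at least -0.2 and L7 minus L3 of at least 0.7. This gave 152 of the 23743 gene models with at least 2 CPM, or 0.64%, out of 41335 in the table. They are called dip-and-recover genes below. All 3 contrasts entered the rule, so the fold changes of these genes are descriptions and carry no test.

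The study bent 6-month-old greenhouse Populus trichocarpa stems by 90 degrees to induce tension wood, and collected stem differentiating xylem (SDX), the layer of young wood cells, by scraping. T3 and T7 are SDX of the upper, tension wood side after 3 and 7 days of bending, and control is SDX from the matching place on unbent trees (day 0). No allele, line or agent differs between the groups. Each group has 3 libraries, numbered 1 to 3 in the sample titles, and the study calls its replicates biological, although the titles do not say that each is a separate tree or what a number marks. No unbent trees of day 3 or day 7 are in the series, so bending and time cannot be told apart. The p-values printed here set a difference between groups against the spread between these libraries, whatever that spread stands for. In such scraped tissue, fewer cells of a type and less RNA per cell cannot be told apart either.

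The 9 libraries held 20888144 to 29539805 counts, so that 1 count was worth 0.0321 to 0.0482 CPM after scaling by trimmed mean of M values (TMM), which all levels below carry. The 5 secondary wall cellulose synthases, markers of wood-forming cells, averaged 375 to 2311 CPM in the controls. The edgeR quasi-likelihood test with Benjamini-Hochberg adjustment (adjusted p under 0.05) called 0 of 27795 genes in T3 against control, although 3265 had an unadjusted p under 0.05, and DESeq2 and edgeR's exact test called 881 and 454. In T7 against T3 it called 0 genes as well, with 5618 at an unadjusted p under 0.05 and 1727 and 873 called by DESeq2 and the exact test. In T7 against control it called 2432 genes.

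Lignin is made from monolignols, alcohols built from phenylalanine. Phenylalanine ammonia-lyase (PAL) removes the amino group, cinnamate hydroxylase (C4H) adds a hydroxyl group and coumarate CoA ligase (4CL) activates the acid with coenzyme A. Caffeoyl-CoA methyltransferase (CCoAOMT), coniferaldehyde hydroxylase (CAld5H) and an aldehyde O-methyltransferase (AldOMT) then set how many methoxyl groups the ring carries, which separates guaiacyl from syringyl lignin. Tension wood of angiosperm trees is known for low lignin and high cellulose.

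The table gives Potri identifiers only, and gene names for 31 wood genes came from the study's gene and primer tables. Of these, 8 were dip-and-recover genes, and all 8 were among the 22 monolignol genes: PtrPAL2 (Potri.008G038200), PtrPAL4 (Potri.010G224100), PtrPAL5 (Potri.010G224200), PtrC4H1 (Potri.013G157900), Ptr4CL3 (Potri.001G036900), PtrCCoAOMT1 (Potri.009G099800), PtrCAld5H1 (Potri.005G117500) and PtrAldOMT2 (Potri.012G006400). They were 36.4% of the monolignol genes. None of the other 9 wood genes, which are 5 cellulose synthases, 2 hemicellulose genes and the transcription factors PtrHSFB3-1 and PtrMYB092, met the rule. PtrCesA7, PtrCesA8, PtrCesA18 and PtrIRX10-1 missed it only by L3, with L7 minus L3 of 0.93 to 1.09. PtrCesA4 missed it only by L7 (-0.55) and PtrCesA17 only by L7 minus L3 (0.56). PtrCslA2 and both transcription factors missed it by L7 and by L7 minus L3. The remaining 144 dip-and-recover genes have no name in the sources used here and are described by level, position and count profile.

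Several of these enzymes have close copies, and the study's own RT-qPCR primers show how alike they are. They are printed here because reads from such stretches may fit both copies, and the treatment of such reads is not given in the sources used here. Capitals mark the bases that differ between the copies, each primer is written 5′ to 3′, and the reverse primer lies on the opposite strand. PtrPAL4 and PtrPAL5 are neighbours on chromosome 10 in the numbering of the gene IDs, and their forward primers of 25 bases differ at 2 bases while the reverse primers of 21 bases are the same.
PtrPAL4 forward: gagatgctggaagctatcaccaaAT
PtrPAL5 forward: gagatgctggaagctatcaccaaGC
PtrPAL4 reverse: ggctctccattgggtccaact
PtrPAL5 reverse: ggctctccattgggtccaact
PtrCAld5H1 (chromosome 5), a dip-and-recover gene, and its copy PtrCAld5H2 (chromosome 7), which is not one, differ at 3 of 27 and 3 of 25 bases of their primers.
PtrCAld5H1 forward: aaTccaatataggcaagcctgtgaaCG
PtrCAld5H2 forward: aaGccaatataggcaagcctgtgaaTC
PtrCAld5H1 reverse: atttttGgccccAaaagctgctctA
PtrCAld5H2 reverse: atttttAgccccGaaagctgctctG

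At the entry of the pathway, PtrPAL4 had 675, 956 and 912 CPM in controls 1 to 3, 573, 863 and 323 CPM in T3 libraries 1 to 3, and 1763, 865 and 1499 CPM in T7 libraries 1 to 3. T3 library 2 lay inside the control range and level with T7 library 2, while the other T3 libraries lay below every control and the other T7 libraries above every control. PtrPAL5 had 437, 668 and 613 CPM in controls, 373, 564 and 211 CPM in T3 and 1181, 556 and 1021 CPM in T7. Here T3 library 2 was slightly above T7 library 2, so the T7 and T3 groups overlapped. PtrPAL2 had 353, 385 and 551 CPM in controls, 209, 380 and 144 CPM in T3 and 585, 346 and 450 CPM in T7. Only T3 libraries 1 and 3 were low for this gene, since T3 library 2 lay between controls 1 and 2 and above T7 library 2.

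PtrC4H1, the hydroxylase that follows PAL, had 729, 1006 and 881 CPM in controls, 545, 888 and 432 CPM in T3 and 1529, 862 and 1534 CPM in T7. T7 libraries 1 and 3 stood well above all controls and T7 library 2 within them. Ptr4CL3 had 475, 629 and 654 CPM in controls, 312, 466 and 220 CPM in T3 and 805, 362 and 625 CPM in T7. All T3 libraries were below all controls for Ptr4CL3, T3 library 2 only narrowly, and T7 library 2 was below all controls as well.

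Of the methylation and hydroxylation steps, PtrCCoAOMT1 had 709, 1057 and 1008 CPM in controls, 597, 764 and 545 CPM in T3 and 1491, 816 and 1502 CPM in T7. Its T3 libraries all lay below its T7 libraries, and T3 library 2 lay above control 1. PtrCAld5H1 had 515, 559 and 561 CPM in controls, 269, 507 and 156 CPM in T3 and 740, 432 and 698 CPM in T7. The controls of PtrCAld5H1 were close together, T3 library 2 was just below them, and T7 library 2 was below T3 library 2. PtrAldOMT2 had 2179, 2868 and 3248 CPM in controls, 1463, 1781 and 1260 CPM in T3 and 3302, 1680 and 3383 CPM in T7. All T3 libraries were below all controls for PtrAldOMT2, and so was T7 library 2.

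**Figure D1:**
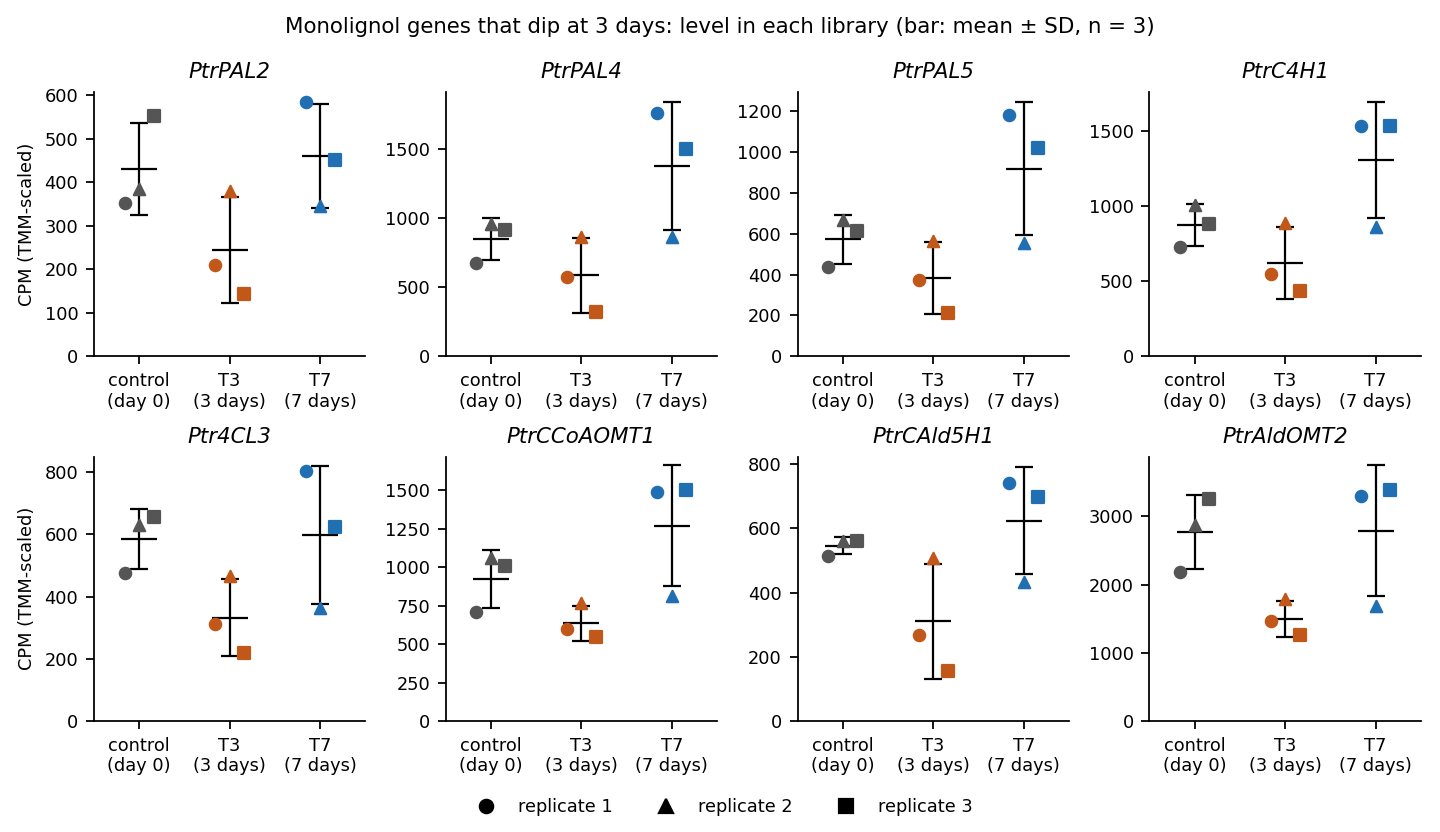
Level of the 8 monolignol dip-and-recover genes in each library, in TMM-scaled CPM on axes from 0, by group in order of days; symbols give the replicate number and black bars the mean ± SD of 3 libraries. In every panel replicate 2 (triangle) is the highest of T3 and the lowest of T7, and replicate 3 (square) is the lowest of T3.

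The group means of the 8 genes were 1.40- to 1.84-fold lower in T3 than in control (fitted log2 fold changes -0.49 to -0.88, SE 0.30 to 0.40) and 1.80- to 2.40-fold higher in T7 than in T3 (0.84 to 1.26, SE 0.30 to 0.40). Against control, T7 was 0.46 to 0.70 higher on the log2 scale for PtrCCoAOMT1, PtrC4H1, PtrPAL5 and PtrPAL4 (SE 0.30 to 0.40). For PtrAldOMT2, Ptr4CL3, PtrPAL2 and PtrCAld5H1 the difference was 0.01 to 0.19 (SE 0.34 to 0.39), and its sign turned with library totals as the only scaling (-0.10 to -0.29). The summed level of the 8 genes was 6071, 8128 and 8429 CPM in controls 1 to 3, 4341, 6214 and 3291 CPM in T3 and 11396, 5920 and 10713 CPM in T7. T3 library 2 and T7 library 2 thus carried nearly the same amount of these transcripts, and both were close to control 1.

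None of the 8 genes had all T3 libraries below all other 6 libraries, where 1.57% of the 23743 genes did. For 3 of them (Ptr4CL3, PtrCAld5H1 and PtrAldOMT2) all T3 libraries lay below all controls (8.31% of all genes). For 2 (PtrPAL4 and PtrCCoAOMT1) all lay below all T7 libraries (15.5% of all genes). The rule chose these genes by the means of the same libraries, so nothing is read from these counts. When T7 and T3 libraries were set against each other one by one, all 8 genes were higher in T7 in 8 of the 9 library pairs. Their median log2 ratios there were 0.58 to 1.94. In these pairs 49.3% to 53.8% of all genes were higher in T7. Of the 2268 genes with at least 100 CPM, a level that all 8 reached, 55.3% to 71.3% were higher in T7. In the pair of T7 library 2 over T3 library 2, 2 of the 8 were higher (51.1% of all genes and 44.8% of the 2268), with a median log2 ratio of -0.06. The rule asked for a higher T7 mean than T3 mean in these same libraries, so the pairs are no separate support for the return.

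The other 14 monolignol genes missed the rule in different ways. L3 was above -0.5 for 6 of them, L7 was below -0.2 for 7, and 9 had L7 minus L3 under 0.7, some failing on more than 1 count. Over all 22 monolignol genes the median L3 was -0.79, the median L7 was 0.14 and the median L7 minus L3 was 0.81, beside 0, 0 and 0.03 over the 23743 genes. The 14 genes outside the rule alone had median fitted log2 fold changes of -0.79 in T3 against control, -0.26 in T7 against control and 0.54 in T7 against T3, where all tested genes had -0.0049, -0.06 and -0.02. Of the 22 monolignol genes, 21 were lower in T3 than in control and 19 were higher in T7 than in T3 by fitted fold change. The rule asked for both directions in its 8 genes. Of the 14 outside it, 1 was higher in T3 than in control and 11 were higher in T7 than in T3. L3 was below 0 for 50% of the 23743 genes. EdgeR called 0 of the 22 in both comparisons (9 and 13 with an unadjusted p under 0.05, beside 11.7% and 20.2% of all genes). Of these, 7 of the 9 and 5 of the 13 were among the 14 genes outside the rule, and the others were chosen by those contrasts. DESeq2 called 4 of the 22 in T3 against control, none of them a dip-and-recover gene, and 7 in T7 against T3, of which 5 were, beside 2.94% and 7.09% of all genes. EdgeR's exact test called 2, none of them a dip-and-recover gene, and 3, of which 1 was, beside 1.67% and 3.24% of all genes.

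The PAL family also holds 2 genes outside the rule. PtrPAL1 and PtrPAL3 were the 2 monolignol genes that edgeR called in T7 against control, both lower, beside 2.68% of all genes called lower. PtrPAL1 fell by 2.12 on the log2 scale (SE 0.41, edgeR adjusted p = 0.0169) and PtrPAL3 fell by 1.98 (SE 0.41, adjusted p = 0.0215). Without control 1 the edgeR adjusted p of PtrPAL1 and PtrPAL3 was 0.0526 and 0.0681, without T7 library 3 it was 0.0899 and 0.0955, and without control 3 that of PtrPAL3 was 0.0629. PtrPAL2, PtrPAL4 and PtrPAL5 had fitted T7 against control differences of 0.10, 0.70 and 0.68 on the log2 scale, and their difference from PtrPAL1 and PtrPAL3 was not tested.

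Ratios of counts between copies cancel the scaling of a library, although they also carry the lengths of the 2 genes, so only their course is described. PtrPAL4 over PtrPAL5 stayed between 1.43 and 1.56 in all 9 libraries. PtrC4H1 over PtrC4H2 averaged 1.03 ± 0.25 in control, 1.72 ± 0.21 in T3 and 2.01 ± 0.19 in T7 (SD, n = 3 each). PtrCCoAOMT1 over PtrCCoAOMT2 averaged 1.18 ± 0.06 in control, 1.48 ± 0.07 in T3 and 2.29 ± 0.47 in T7 (SD, n = 3 each). PtrCAld5H1 over PtrCAld5H2 averaged 0.64 ± 0.06 in control, 0.65 ± 0.08 in T3 and 1.05 ± 0.25 in T7 (SD, n = 3 each), close to each other in control and T3 and higher in T7. Ptr4CL3 over Ptr4CL5 varied widely, from 3.02 to 17.7 over the 9 libraries. The partners PtrC4H2, PtrCCoAOMT2, PtrCAld5H2 and Ptr4CL5 all missed the rule by L7 below -0.2, a limit that the members had to reach. A higher ratio of member to partner in T7 than in control was thus largely fixed by the rule, and nothing is read from it.

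Among all 152 genes L3 ran from -1.18 to -0.50 with a median of -0.65, and L7 from -0.19 to 2.75 with a median of 0.24. Of them 123 had L7 above 0, 27 had L7 of at least 0.5 and 4 had L7 above 1, while 67 lay between -0.2 and 0.2. Because L7 is centred, it does not give M7 against M0 directly: the T7 mean was at or above the control mean for 67 of the 152 genes with library totals and for 118 with TMM scaling. L7 minus L3 ran from 0.71 to 3.45, with quartiles at 0.81 and 1.08. At the thresholds, the members nearest the limits had L3 of -0.50, L7 of -0.19 and L7 minus L3 of 0.71, and the nearest genes left out had values of -0.50, -0.23 and 0.70, so the members and the genes left out met without a gap at the L3 and L7 minus L3 limits.

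**Figure D2:**
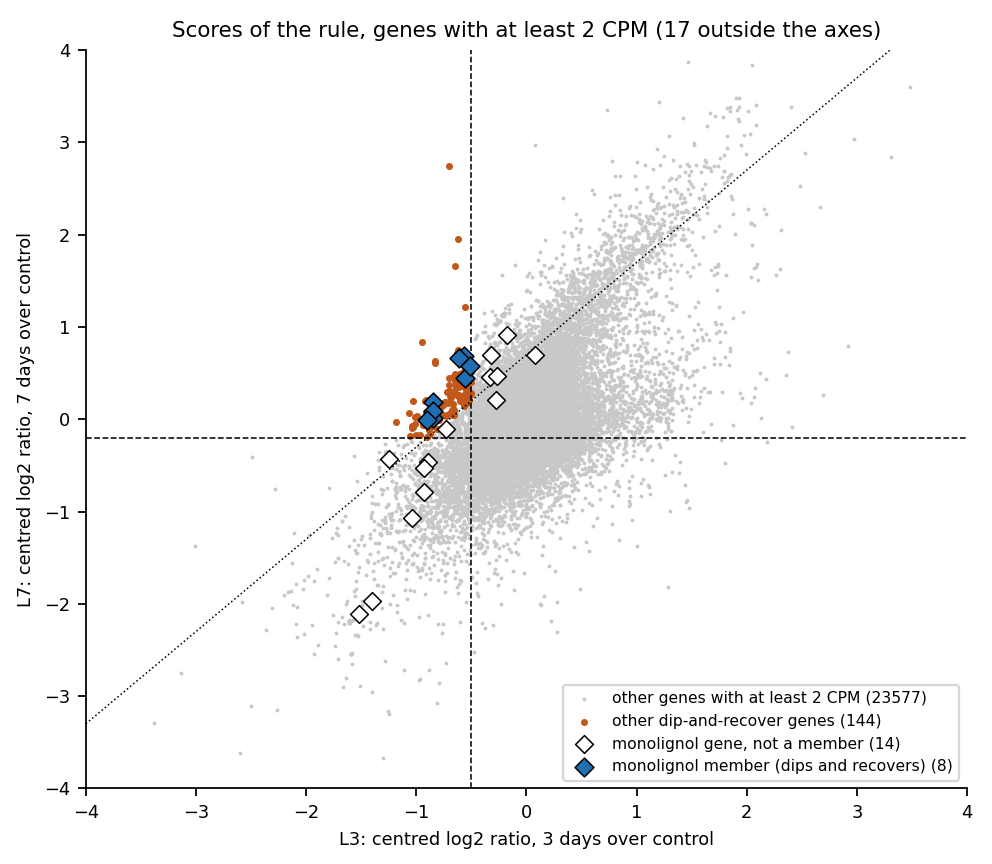
L7 against L3 (centred log2 ratios to control) for the genes with at least 2 CPM, of which 17 lie outside the axes; dashed lines mark L3 of -0.5 and L7 of -0.2, and the dotted line L7 minus L3 of 0.7. Blue diamonds are the 8 monolignol dip-and-recover genes, white diamonds the 14 other monolignol genes, and orange points the other 144 dip-and-recover genes, which form the upper left corner of the cloud.

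In the highest of their group means, 35 of the 152 genes reached at least 100 CPM (23.0%, against 9.55% of the 23743), and 15 reached 500 CPM. The 8 monolignol genes were 8 of these 35. At the other end, 28 had under 5 CPM in their highest group mean (17.7% of all genes did), where 1 CPM of added pseudocount shrinks the log ratio.

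By the rule of naming (largest L7 minus L3 with at least 5 CPM and with all T3 libraries below all others), 2 genes with no name were followed. Potri.006G018000 had 58.7, 71.8 and 83.8 CPM in controls, 35.0, 56.6 and 23.0 CPM in T3 and 114, 56.9 and 77.2 CPM in T7. Its T3 library 2 and T7 library 2 were nearly equal. Potri.003G028300 had 6.80, 8.48 and 7.77 CPM in controls, 3.30, 5.47 and 5.44 CPM in T3 and 13.9, 9.16 and 9.92 CPM in T7, and it is 1 of 4 neighbouring gene models with nearly the same counts.

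The 2 genes with the largest scores are named after their values were seen. Potri.018G069700, with the largest L7 minus L3, had 0.34, 4.85 and 0.56 CPM in controls, 0.05, 0.53 and 1.70 CPM in T3 and 21.2, 3.81 and 30.3 CPM in T7. Control 2 was above all of T3 and above T7 library 2 for this gene. Potri.004G040600, which ranked next, had 7.94, 7.64 and 23.6 CPM in controls, 2.66, 15.2 and 7.56 CPM in T3 and 45.7, 37.8 and 77.9 CPM in T7. Its T7 libraries were above all others, and its T3 libraries overlapped the controls.

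Some of the 152 gene models had nearly the same counts in every library, and whether they are separate measurements was not tested. Count profiles were taken as nearly the same when 2 genes differed in every library by at most 10% or 5 counts. On that measure the 152 models formed 126 profiles, and 36 models shared 10 profiles, the largest of them with 10 models. Exactly equal counts in all 9 libraries were found for 13 models in 3 sets, 8.55% of the 152 against 0.876% of the 23743. None of the 8 monolignol genes shared a profile on that measure. It misses models whose counts differ by a steady factor, and PtrPAL4 over PtrPAL5 stayed between 1.43 and 1.56 in all 9 libraries.

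Most shared profiles lay side by side. Runs of members at most 10 gene models apart took in 65 of the 152 models in 16 runs, and 6 runs of 4 or more held 45. Of the 36 models with a shared profile, 30 lay in such a run. By the number in the gene ID, chromosome 10 held 27 members (17.8%, against 6.77% of the 23743 genes) and chromosome 8 held 20 (13.2%, against 5.91%). With each profile counted once, these were 22 and 11 of 126 (17.5% and 8.73%), and gene models not placed on a chromosome made up 13 members, or 10 profiles. Counting by profile left neighbours in place: runs of 12 and 4 models on chromosome 10 still gave 7 and 4 profiles. The shares over all genes were not counted by profile.

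The runs did not behave alike across libraries. A run of 12 models on chromosome 8 had only 3 profiles, and its median level was 1.82, 4.59 and 5.63 CPM in controls 1 to 3, 2.43, 2.93 and 2.16 CPM in T3 and 10.8, 1.83 and 6.34 CPM in T7. T7 library 2 of this run was below all T3 libraries. A run of 12 models on chromosome 10 with 7 profiles had 16.1, 19.3 and 16.2 CPM in controls, 7.19, 11.4 and 9.27 CPM in T3 and 20.1, 12.8 and 17.99 CPM in T7. All T3 libraries of this run were below all others. A run of 4 models on chromosome 10 at higher level had 333, 103 and 200 CPM in controls, 168, 181 and 48.6 CPM in T3 and 210, 311 and 166 CPM in T7, with T3 libraries 1 and 2 above control 2.

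In the 152 genes together, T3 lay below all controls without overlap for 66 (43.4%), where 8.31% of the 23743 genes did. T3 lay below all T7 libraries for 83 (54.6%, against 15.5% of all genes) and below all other 6 libraries for 45 (29.6%, against 1.57%). The rule used the means of these libraries, so nothing is read from those shares. EdgeR called 0 of the 152 in each comparison, beside 0% of all genes called lower in T3 against control, 0% called higher in T7 against T3, and 2.68% lower and 6.07% higher in T7 against control. At an unadjusted p under 0.05 were 71 of them in T3 against control (11.7% of all tested genes were), 118 in T7 against T3 (20.2% of all) and 5 in T7 against control (7266 genes, 26.1% of all). DESeq2 called 13 lower in T3 against control (1.15% of all genes were), 69 higher in T7 against T3 (4.53% of all) and 1 higher in T7 against control (9.5% of all). EdgeR's exact test called 5 lower in T3 against control (0.664% of all genes), 25 higher in T7 against T3 (1.8%) and 2 higher in T7 against control (7.78%). The rule chose the 152 genes by these same contrasts, so their p-values and calls are no support for the dip or the return.

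Libraries of 1 group spread widely for these genes. The median coefficient of variation of the 152 was 26.4% in control, 28.9% in T3 and 30.9% in T7, beside 17.7%, 17.5% and 15.9% over the 23743 genes. For the 8 monolignol genes it was 18.7% in control, 42.1% in T3 and 32.2% in T7. Choosing genes by group means can itself select genes with a wide spread, so the spread is not read as a trait of these genes.

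The rule used only group means, so the order of the 3 libraries inside a group was not fixed by it, although both can depend on the same libraries. T3 library 2 was the highest of T3 for 122 of the 152 genes (80.3%), against 36.7% of the 23743, and T7 library 2 was the lowest of T7 for 107 (70.4%), against 42.7%. T3 library 3 was the lowest of T3 for 99 (65.1%), against 38.8%. With 1 gene per count profile the shares were 79.4%, 70.6% and 64.3% of 126. Among the 35 members with at least 100 CPM, T3 library 2 was the highest for 34 (97.1%) and T7 library 2 the lowest for 32 (91.4%), against 53.3% and 69.2% of the 2268 genes at that level.

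The 5 cellulose synthases, none of which met the rule, had the same order, with T3 library 2 highest and T3 library 3 lowest for 5 of 5 and T7 library 2 lowest for 5 of 5. Among the 1487 genes that were lower at both 3 and 7 days (L7 under -0.2), T3 library 2 was the highest of T3 for 40.3% and T7 library 2 the lowest of T7 for 30.6%. The part of T3 library 2 and T7 library 2 in the dip and the return was not tested apart from the counts without them given below.

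Against the mean of the controls, the median log2 ratio of the 152 genes was -0.75, -0.41 and -0.92 in T3 libraries 1 to 3 and 0.42, -0.17 and 0.24 in T7 libraries 1 to 3. The controls themselves stood at -0.15, -0.02 and 0.13. The median was below the controls in all 3 T3 libraries and above them in 2 of 3 T7 libraries. The rule chose the genes by the means of these same libraries, so this only describes the choice. For the genes lower at both times the values were -0.72, -0.76 and -0.94 in T3 and -0.83, -0.87 and -1.003 in T7, a narrower range between the T7 libraries. In the pair of T7 library 2 over T3 library 2, 105 of the 152 genes were higher in T7 (69.1%, median log2 ratio 0.23), against 51.1% of all genes. The other 8 pairs had 85.5% to 98.7%, against 49.3% to 53.8% of all genes, and the rule itself asked for this direction.

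**Figure D3:**
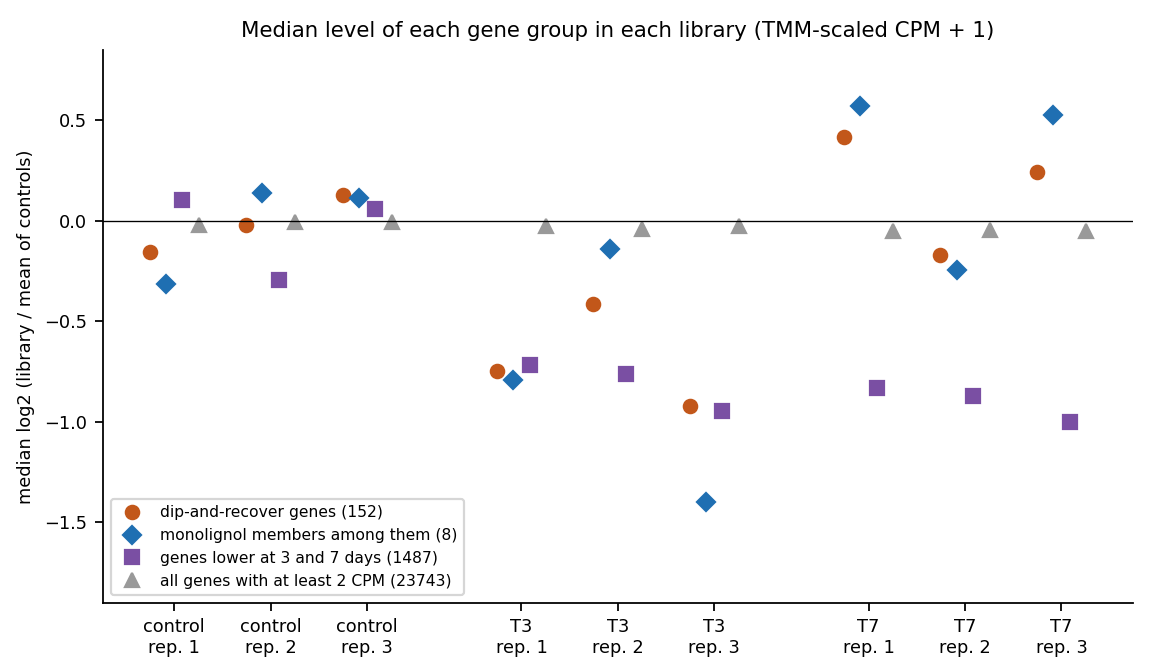
Median log2 ratio of each library to the mean of the controls (TMM-scaled CPM with 1 added) for 4 groups of genes, libraries in order of days. The 152 genes (orange) and the 8 monolignol genes among them (blue) lie below the controls in T3 libraries 1 and 3. Both lie above 0 in T7 libraries 1 and 3, and below 0 in T7 library 2. In T3 library 2 the 152 genes are nearer to the controls but still below them (-0.41). The 8 monolignol genes stand there at -0.14, above control 1 at -0.32 and so within the range of the controls.

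The rule was also applied without all 3 libraries of 1 number, and the left-out T3, T7 and control libraries were then read, centred on their own medians. The left-out libraries did not pick these genes, but the members and gene lists were set with earlier results of these data known. Each left-out group was 1 library, and models with nearly the same counts were counted singly. The shares are therefore descriptions and no separate support. Chosen without replicate 1 were 170 genes, of which 77 (45.3%) were lower in T3 than in control and higher in T7 than in T3 in the left-out libraries, against 26.4% of all genes with at least 2 CPM. Chosen without replicate 3 were 74 genes, of which 38 (51.4%) did so, against 31.4%. Chosen without replicate 2 were 300 genes, the upper number the rule allows, of which 80 (26.7%) did so, against 25.4%.

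The steps differed in this. In the left-out libraries 55.3%, 58.3% and 56.8% of the genes chosen without replicates 1, 2 and 3 were lower in T3 than in control, against 50.0% of all genes, and 71.8%, 55.3% and 87.8% were higher in T7 than in T3. Of monolignol genes, 5 were chosen without replicate 1 and all 5 dipped and returned in the left-out libraries, 10 were chosen without replicate 2 and 1 of them did so, and 0 were chosen without replicate 3.

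**Figure D4:**
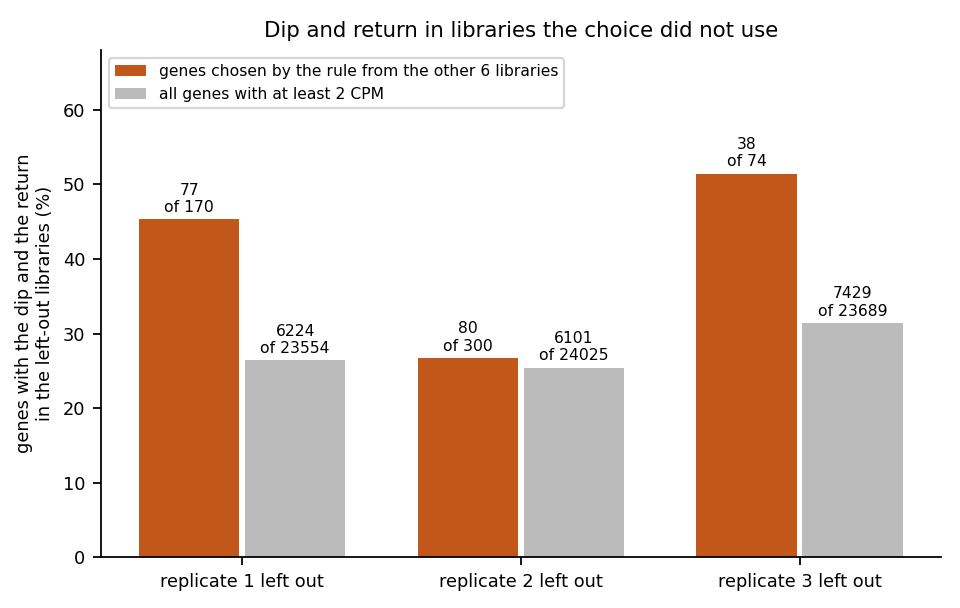
Share of genes that were lower in T3 than in control and higher in T7 than in T3 in the 3 libraries of the replicate number left out (vertical axis, percent), for genes the rule chose from the other 6 libraries (orange) and for all genes with at least 2 CPM (grey). The orange bars stand above the grey ones with replicates 1 and 3 left out and level with them with replicate 2 left out.

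Single libraries also moved the membership. Without T3 library 2 the rule reached its upper number of 300 genes, 135 of them among the 152, and without T7 library 2 it gave 247 genes, 138 of them shared. Without T3 library 3 it gave 110 genes, 72 of them shared, and 1 of the 8 monolignol genes, PtrAldOMT2. Without control 2 it kept 4 of the monolignol genes. Over the 9 libraries left out in turn, 17 of the 152 genes were kept each time, PtrAldOMT2 among them.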

How the data were processed

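RNA of stem differentiating xylem was sequenced in 9 libraries (control, T3 and T7, 3 each), with groups and replicate numbers from the sample titles. The authors deposited raw counts per gene model (41335 Potri models of version 3, whole numbers, no normalization). The submitters' processing notes name the aligner TopHat without its version. Not given in the sources used here are the build, the counter, its use of strand and how it handled reads matching more than 1 place, so counts of close copies and of overlapping or antisense genes are uncertain. Each column was assigned to its sample by name (0 unmatched). The reference table of gene symbols matched 0 of the identifiers.

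The rule was applied to CPM on library totals, and levels are TMM-scaled CPM. Fold changes came from edgeR 4.0.16 (R 4.3.3) in 1 fit of the 3 groups after filterByExpr, which 27795 genes and all 152 members passed, with glmQLFTest (two-sided) and Benjamini-Hochberg adjustment over all tested genes. DESeq2 1.42.0 and edgeR's exact test were alternatives, beside other scalings, filters, pseudocounts and left-out libraries. The members and gene lists were chosen with earlier results of these data known. Named genes were the listed wood genes that met the rule, their nearest family partners, and 2 unnamed genes by largest L7 minus L3. Both scripts were tested on simulated data.

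No replicate looked like a library deposited again, since the chi-square per gene between replicates was 22.0 to 92.4 (genes with at least 20 counts). Deviations from group means correlated between T3 and T7 libraries of the same number (0.293, 0.221 and 0.189 for 1 to 3, each over 0.1), a hint of pairing from the data and not the titles. The fold changes printed come from the fit without a block, and the blocked fits were alternatives. T3 and T7 libraries of different numbers had correlations of -0.262 to 0.026. Between control and T3 or T7, same-numbered libraries had correlations of -0.415 to 0.448, of mixed sign. Libraries of different numbers reached 0.356 there (control 2 with T3 library 3), so the hint between T3 and T7 is weak.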

Additional observations from a re-analysis of the deposited data

How the results depend on the processing

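With the replicate number as a block the counts called by edgeR were 0 in T3 against control, 1847 in T7 against control and 0 in T7 against T3, and 0 of the 152 genes, so the block changed no call of theirs. A block with only the compared groups, chosen after seeing the data, gave 222 genes and 1 of the 152 in T7 against control, and 0 genes in T7 against T3. The 152 genes became 43 with a pseudocount of 5, 74 with no centring, 300 without replicate 2 and 74 without replicate 3. Leaving out single libraries or replicate numbers gave 74 to 300 genes and 0 to 10 monolignol genes. TMM scaling, which was otherwise used for levels, gave 144 genes and 7 monolignol genes, and group medians gave 204 and 9. In T3 against control DESeq2 called 881 genes (13 of the 152) and edgeR's exact test 454 (5 of the 152). In T7 against control DESeq2 called 4364 genes (1 of the 152) and the exact test 3456 (2 of the 152), and with only the compared groups 1 of the 152 was called. In T7 against T3 DESeq2 called 1727 genes (69 of the 152) and the exact test 873 (25 of the 152). The rule used these contrasts, so nothing is read from the counts of the 152. Leaving out 1 library gave 0 to 30 called genes in T3 against control, 343 to 2699 in T7 against control and 0 to 3 in T7 against T3, with 0 to 1 of the 152. The count in T7 against control was 643 without control 1, 983 without control 3, 910 without T7 library 1 and 343 without T7 library 3, and that in T3 against control was 30 without control 2. The cause of these differences was not tested. Of 408 fold changes of the 8 monolignol genes under the alternatives, 401 moved by less than their SE, and 6 of the other 7 arose without T3 library 2. T3 library 2 was the highest of T3 for 71.1% of members with library totals (23.0% of all genes). With edgeR's relative log expression (RLE) factors it was so for 78.3% (36.8% of all). T7 library 2 was the lowest of T7 for 59.2% with library totals (5935 of all 23743 genes) and 70.4% with RLE factors (43.4% of all). With 3 libraries a group, 1 library carries much weight in each of these counts, and genes under 5 CPM rest on few reads.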
